A study of Mus musculus with 16 samples.

Results

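Of 7 genes for subunits of the GABA-A receptor, *Gabrd* and *Gabrb1* rose strongly in the mouse hippocampus between postnatal day 1 (P1) and postnatal day 30 (P30), *Gabra3* and *Gabrb2* rose by a small amount, and *Gabra2*, *Gabra4* and *Gabra5* were not read above background at either age. The signals of *Gabra3* and *Gabrb2* were near background at both ages, which understates a change. With sex as a covariate the *Gabra3* call was lost in both genotypes and the *Gabrb2* call in mice with 1 working copy of *Mef2c*. The 2 probes of *Gabrd* were 2.69-fold and 2.96-fold higher at P30 than at P1 in wild-type (WT) mice, and the probe of *Gabrb1* was 2.21-fold higher. None of the 4 genes that could be tested was called different between WT mice and mice with 1 working copy of *Mef2c*. Of all probes tested, 0 of 13566 were called at P1 and 1 of 13413 at P30. The members are every probe whose gene symbol in the deposited table, or whose gene number under an older symbol, is that of *Gabra2*, *Gabra3*, *Gabra4*, *Gabra5*, *Gabrb1*, *Gabrb2* or *Gabrd*, which gives 8 probes of the 25697 on the array.

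Hippocampal RNA was hybridised to Illumina MouseRef-8 v2 beadchips as 16 samples, 1 array for each and 4 in each of 4 groups. The groups were WT mice at P1, *Mef2c*-het mice at P1, WT mice at P30 and *Mef2c*-het mice at P30, all on a C57BL/6J background and born as littermates of heterozygous by WT crosses. *Mef2c*-het mice lack exon 2 of 1 *Mef2c* allele throughout the body, with no restriction to a cell type or age, and the sample labels call them KO. The arrays addressed how expression in the hippocampus differs between these genotypes, and the presence of both ages lets the postnatal change of each subunit be read in each genotype.

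GABA-A receptors are chloride channels of 5 subunits opened by GABA, the main inhibitory transmitter of the brain. The usual receptor holds α subunits, β subunits and either a γ or a δ subunit, and the α subunit sets much of its kinetics and drug sensitivity. Receptors with a γ subunit mostly gather under inhibitory synapses and carry brief currents, whereas receptors with the δ subunit lie outside synapses, respond to low ambient GABA and to neurosteroids and carry a tonic current. In the hippocampus δ is found mostly with α4 in dentate granule cells, and α5 is abundant in pyramidal cells. The set of subunits is known to shift in the weeks after birth, when GABA also turns from a depolarising into an inhibiting transmitter.

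Between 12638 and 14150 probes an array had a detection p-value under 0.05 against negative control beads, and a member probe was read from 23 to 60 beads on an array with a standard error over the beads of at most 6.79% of its signal. Levels below are log2 signals quantile normalised over all 16 arrays, and the level of one probe cannot be compared with that of another. Sex, which the labels do not give, was read from *Xist* and Y-linked genes: 3 of the 4 WT and 2 of the 4 *Mef2c*-het samples at P1 read as female, and all 8 samples at P30 as male, so sex and age overlap in part. At each age a few arrays stood apart in overall pattern and had a higher background (2 WT and 1 *Mef2c*-het at P30, and 1 of each genotype at P1), with a 5th percentile of the deposited signal of 140 to 161 against 106 to 131 on the other arrays. *Mef2c* itself was read by 2 probes above background. In *Mef2c*-het mice they differed from WT by -0.24 ± 0.19 and -0.29 ± 0.17 log2 units (± SE) at P30 and by -0.01 ± 0.12 and 0.07 ± 0.12 at P1, none past the threshold (limma adjusted p at least 0.976), and the genotypes overlapped with both probes at both ages. The table does not say where these probes lie relative to the deleted exon.

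The 7 members lie on 5 chromosomes in GRCm38.p6. *Gabra2* (chr5:70958392-71095849, minus strand), *Gabra4* (chr5:71569734-71658308, minus strand) and *Gabrb1* (chr5:71657921-72149572, plus strand) share a cluster with *Gabrg1*, and the annotated 5′ ends of *Gabra4* and *Gabrb1*, on opposite strands, overlap by 388 bases. *Gabra5* (chr7:57407669-57591016, minus strand) lies near *Gabrg3*. *Gabrb2* (chr11:42419515-42632591, plus strand) lies near *Gabra6*, *Gabra3* (chrX:72432676-72656919, minus strand) is X-linked, and *Gabrd* (chr4:155384979-155398098) stands alone.

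The promoters of the 3 measured members for which a promoter sequence was at hand differ in base composition, and they are shown for that reason. Each is the 200 bases before the outermost start that has a window in the RefSeq promoter table used here, written 5′ to 3′ on the strand of the gene. For *Gabrb1* and *Gabra3* that start is also the start of the annotated gene, and for *Gabrb2* the annotated gene begins further upstream. Capitals mark CG dinucleotides and, as the unbroken run of 10 letters in *Gabrb2*, a match to the MEF2 site.
Gabrb1, chr5:71657721-71657920, plus strand: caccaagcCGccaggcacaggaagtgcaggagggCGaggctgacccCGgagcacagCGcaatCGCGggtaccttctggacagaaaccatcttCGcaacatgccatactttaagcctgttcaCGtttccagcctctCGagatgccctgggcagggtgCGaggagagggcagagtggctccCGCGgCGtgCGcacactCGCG
Gabrb2, chr11:42420240-42420439, plus strand: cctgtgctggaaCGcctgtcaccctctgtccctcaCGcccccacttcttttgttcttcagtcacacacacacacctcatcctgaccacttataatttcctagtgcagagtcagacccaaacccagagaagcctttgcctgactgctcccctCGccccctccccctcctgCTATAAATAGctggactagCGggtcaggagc
Gabra3, chrX:72656920-72657119, minus strand: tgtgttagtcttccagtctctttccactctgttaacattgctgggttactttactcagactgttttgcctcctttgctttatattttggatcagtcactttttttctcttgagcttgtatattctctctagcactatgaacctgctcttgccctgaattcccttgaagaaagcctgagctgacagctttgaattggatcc

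The stretch of *Gabrb1* held 16 CG dinucleotides and 63.5% G or C, that of *Gabrb2* 4 and 56.0%, and that of *Gabra3* none and 41.0%. Over windows of 300 bases (250 before and 50 after a start) the median of all 32851 promoters was 7 CG dinucleotides and 52.7% G or C, the outermost window of *Gabrb1* had 25 and 66.0%, and both windows of *Gabra3* had 0, with 43.0% and 39.3%. The MEF2 site in the *Gabrb2* window begins 31 bases before that start and contains the letters TATAAA. Searched on both strands, a MEF2 site was in 3.19% of all windows, and TATAAA on the sense strand was in 8.32%. None of the other 9 windows, of 6 members with 10 windows in all, held either one. The core letters of the CREB site (TGACG), EGR sites (GCGTGGGNG), GC boxes (GGGCGG) and E-boxes (CANNTG) were searched on both strands in the same windows. TGACG was in 1 *Gabrb2* window against 20.8% of all windows, GCGTGGGNG was in no member window against 1.90%, GGGCGG was in windows of *Gabra2*, *Gabra4* and *Gabrb2* against 35.7%, and CANNTG was in windows of *Gabra2*, *Gabra5* and *Gabrb2* against 72.3%. A match is a stretch of letters and not a measured binding site.

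Of the 4 α subunit members only *Gabra3* was read above background. The probes of *Gabra2*, *Gabra4* and *Gabra5* had detection p-values of at least 0.160, 0.0789 and 0.158 on the best of the 16 arrays and were therefore not tested. Their levels ranged from 6.92 to 7.19, from 7.0 to 7.26 and from 6.90 to 7.21 in the 4 groups together. These probes were not well above background at either age, which sets no level for their transcripts and shows neither presence nor absence of a change. One more probe, whose table symbol C030002O17Rik is an older name of *Gabrb2* but which carries no gene number, falls outside the rule. It was above background on 1 array of 16.

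**Figure D1:**
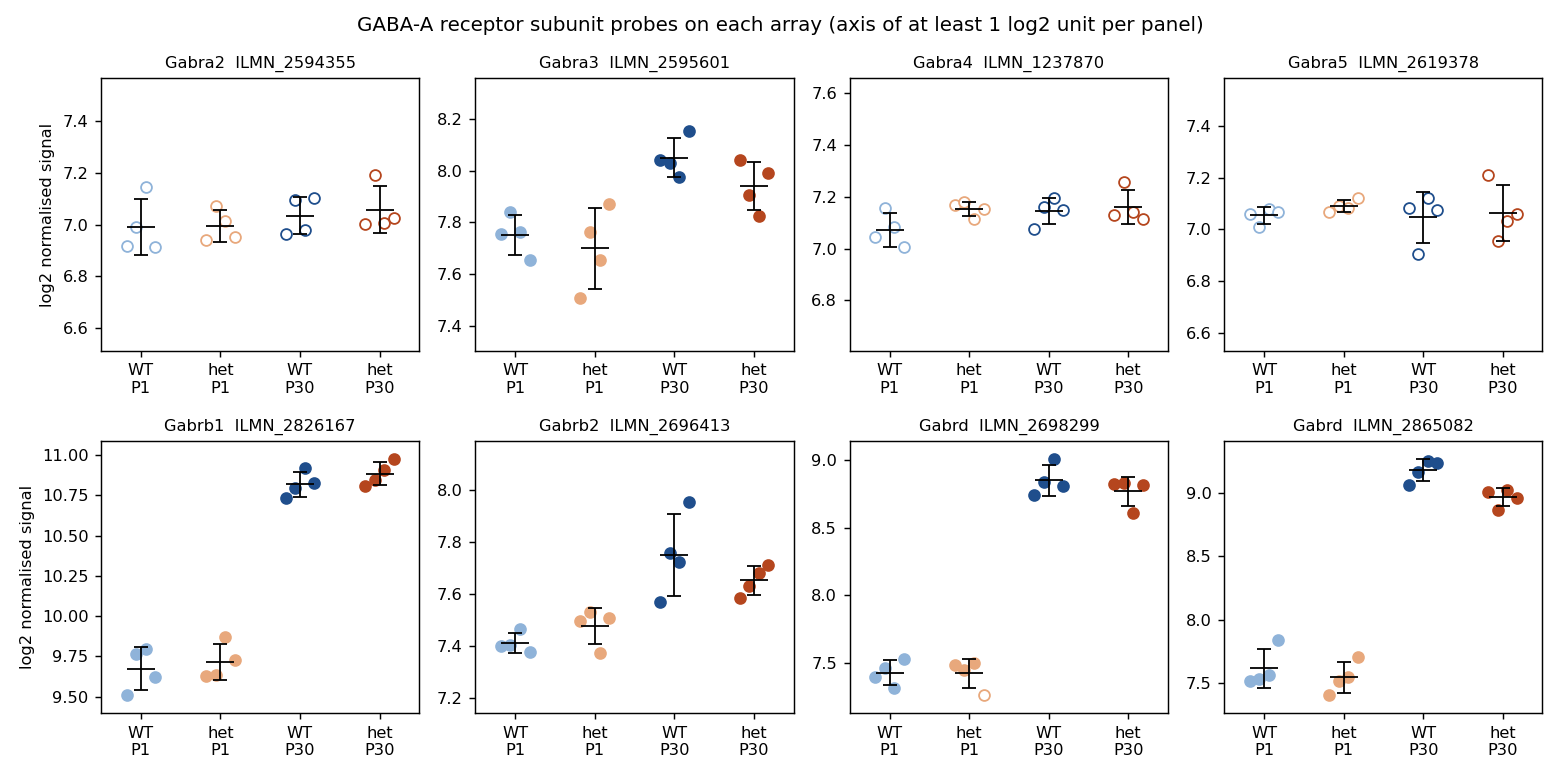
Log2 normalised signal (vertical axis, separate for each panel and spanning at least 1 log2 unit) of the 8 member probes on each of the 16 arrays by group, where het stands for *Mef2c*-het. Filled points have a detection p under 0.05, open points do not, and bars give the mean ± SD of 4 arrays. In both *Gabrd* panels and the *Gabrb1* panel every P30 array lies above every P1 array, as it does by a narrow gap in the *Gabrb2* panel. Within a genotype this held for 25.3% (WT) and 24.3% (*Mef2c*-het) of all probes tested. The panels of *Gabra2*, *Gabra4* and *Gabra5* hold open points only.

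In WT mice all 5 tested member probes were called higher at P30 than at P1, against 28.0% of the 14777 probes tested called higher (limma, Benjamini-Hochberg adjusted p under 0.05). For 3 of the 5, those of *Gabrd* and *Gabrb1*, the log2 fold change was at least 1, against 6.63% of all probes. The change between the ages was widespread, with 59.7% of all probes called in one direction or the other, and the median log2 fold change of all probes was -0.03. In bulk tissue, fewer cells of a type and less RNA per cell cannot be told apart, in either direction of change.

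*Gabrd*, the gene of the δ subunit of extrasynaptic receptors, showed the largest rise. With its brighter probe (ILMN_2865082) the 4 WT arrays at P1 read 7.52, 7.53, 7.56 and 7.84, and the 4 at P30 read 9.06, 9.16, 9.25 and 9.23. The highest P1 array thus stayed more than 1 log2 unit below the lowest P30 array. The group means were 7.61 ± 0.15 and 9.18 ± 0.09 (SD, n = 4 arrays each), a log2 fold change of 1.56 ± 0.08 (SE, limma adjusted p = 6.86e-11).

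The other probe of *Gabrd* (ILMN_2698299) read 7.39, 7.46, 7.31 and 7.53 in WT at P1 and 8.75, 8.84, 9.01 and 8.81 at P30. Its log2 fold change was 1.43 ± 0.08 (SE, limma adjusted p = 1.07e-10), so both probes gave the same direction and a like size. Across the 16 arrays the pair correlated with r = 0.98, a value that the shared age difference sets, and with r = 0.01 for the deviations from the 4 group means. Within a group the 2 probes thus did not order the arrays alike. At P1 these signals were close to the background of the arrays (deposited signals of 146 to 224 in WT against 371 to 693 at P30). After a normexp background correction the log2 fold changes were 2.64 for the brighter probe and 2.76 for the other, so the size of the rise depended on how background was treated and its direction did not.

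*Gabrb1*, the gene of the β1 subunit, came next. WT arrays at P1 read 9.51, 9.77, 9.79 and 9.62 and those at P30 read 10.73, 10.80, 10.92 and 10.83, again with no overlap. The log2 fold change was 1.15 ± 0.07 (SE, limma adjusted p = 1.29e-09), and with normexp background correction it was 1.28. The probe was far above background on all 16 arrays, with deposited signals from 697 to 2188.

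*Gabrb2*, the gene of the β2 subunit of many adult receptors, rose by much less. Its probe read 7.40, 7.40, 7.46 and 7.38 in WT at P1 and 7.57, 7.76, 7.72 and 7.96 at P30. The P30 arrays spread more widely than the P1 arrays and did not overlap them. The log2 fold change was 0.34 ± 0.07 (SE, limma adjusted p = 0.000506), and with normexp background correction it was 0.92.

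*Gabra3*, the gene of the α3 subunit, also rose by a small amount. WT arrays at P1 read 7.75, 7.84, 7.76 and 7.65, and those at P30 read 8.04, 8.03, 7.98 and 8.15. The log2 fold change was 0.30 ± 0.08 (SE, limma adjusted p = 0.0030), and with normexp background correction it was 0.61. The gene is X-linked, and with sex as a covariate the value was 0.24 and the call was lost (limma adjusted p = 0.0525). For each of these 5 probes the WT ages did not overlap, as for 25.3% of all probes tested in this direction, and the two-sided exact permutation p was 0.0286, the smallest that 4 against 4 arrays allow.

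In *Mef2c*-het mice all 5 tested member probes were also called higher at P30, against 26.9% of all probes called higher and 58.3% called in either direction, and the same 3 had a log2 fold change of at least 1, against 6.25%. The brighter *Gabrd* probe rose by 1.42 ± 0.08 log2 units (SE, limma adjusted p = 2.30e-10), from 7.40, 7.52, 7.54 and 7.71 at P1 to 9.01, 8.87, 9.02 and 8.96 at P30. The other one went from 7.48, 7.45, 7.49 and 7.26 to 8.83, 8.83, 8.61 and 8.82, a rise of 1.35 ± 0.08 (SE, limma adjusted p = 2.20e-10), and at P1 it was above background on 3 of the 4 arrays. Neither probe overlapped between the ages. The probe of *Gabrb1* rose by 1.17 ± 0.07 (SE, limma adjusted p = 1.03e-09), from 9.63, 9.63, 9.87 and 9.73 to 10.81, 10.85, 10.91 and 10.97.

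The 2 small rises were less secure in *Mef2c*-het mice. *Gabra3* went from 7.51, 7.76, 7.65 and 7.87 at P1 to 8.04, 7.90, 7.83 and 7.99 at P30, so that the ages overlapped. The ages did not overlap for the other 4 probes, as for 24.3% of all probes in this direction. Its log2 fold change was 0.24 ± 0.08 (SE, limma adjusted p = 0.0126), with an exact permutation p of 0.0571. *Gabrb2* went from 7.50, 7.53, 7.37 and 7.51 to 7.59, 7.63, 7.68 and 7.71, with a log2 fold change of 0.18 ± 0.07 (SE, limma adjusted p = 0.0410). With normexp background correction the values were 0.54 and 0.49. With sex as a covariate they were 0.20 and 0.16, and both calls were lost (limma adjusted p = 0.0598 and 0.106). On the male arrays alone, 2 at P1 and 4 at P30, the changes were 0.12 for *Gabra3* and 0.13 for *Gabrb2*, with limma adjusted p-values of 0.251 and 0.292. Without *Mef2c*-het P1 replicate 1 both calls were lost, with 0.17 for *Gabra3* and 0.18 for *Gabrb2* (limma adjusted p = 0.0527 and 0.0617), which left 3 member probes called. The *Gabrb2* call was also lost without any one of P1 replicates 4 and 8 and P30 replicates 5, 6 and 7, with changes of 0.14 to 0.19 (limma adjusted p from 0.0524 to 0.123), and without the arrays that stood apart, at 0.18 (limma adjusted p = 0.0579).

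**Figure D2:**
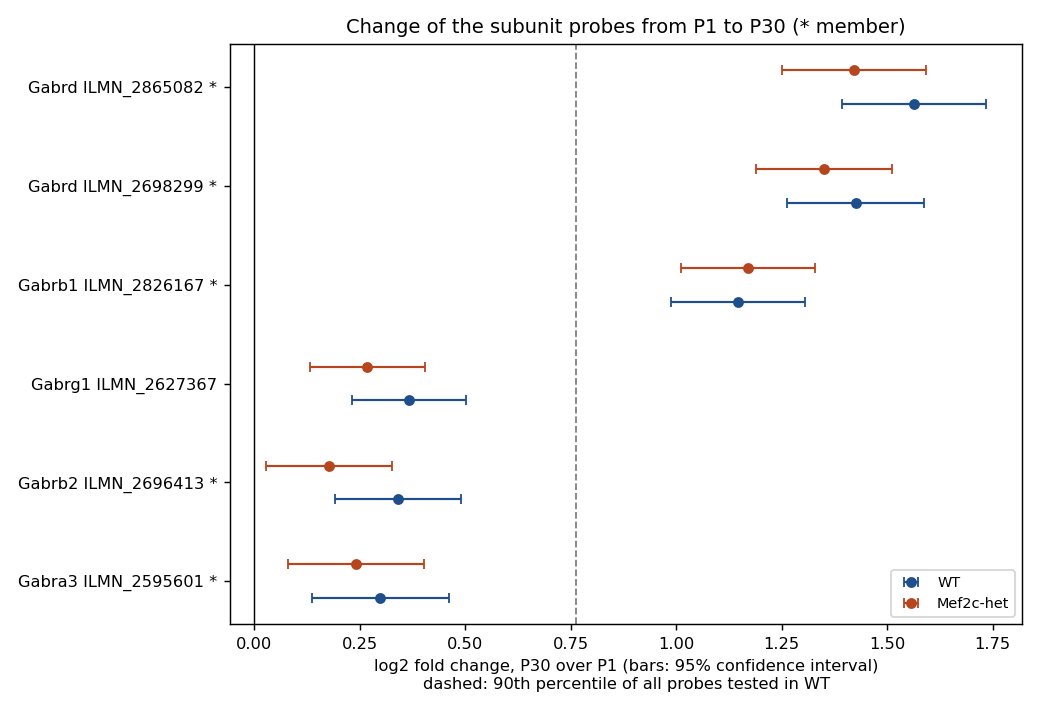
Log2 fold change from P1 to P30 (horizontal axis) of 6 GABA-A receptor subunit probes tested, with 95% confidence intervals, in WT (blue) and *Mef2c*-het (red) mice. An asterisk marks members, and the dashed line is the 90th percentile of all probes tested in WT, 0.76. Both *Gabrd* probes and *Gabrb1* lie furthest to the right, and every interval lies above 0.

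The subunits read above background did not all rise by equal amounts. For all 21 pairs of members the within-array difference of the probes was compared between the ages in each genotype, by a two-sided exact permutation test with adjustment over the 42 tests and with the brighter probe of *Gabrd*. In 6 pairs both probes were above background, and 10 of their 12 tests had an adjusted p of 0.040. That value depends on the other pairs too, since 30 of all 42 tests reached the smallest exact permutation p. Not every normalisation brought the adjusted p under 0.05. In WT mice *Gabrd* rose by 0.42 ± 0.11 log2 units (SE) more than *Gabrb1*, by 1.22 ± 0.10 more than *Gabrb2* and by 1.27 ± 0.12 more than *Gabra3*. *Gabrb1* rose by 0.81 ± 0.09 more than *Gabrb2*. In *Mef2c*-het mice the *Gabrd* rise exceeded that of *Gabrb1* by 0.25 ± 0.08. Each of these had an exact permutation p of 0.0286. The less bright *Gabrd* probe was not put through this test. It rose by 1.43 log2 units in WT and 1.35 in *Mef2c*-het mice, against 1.15 and 1.17 for *Gabrb1*. *Gabra3* and *Gabrb2* differed in their change by -0.04 ± 0.07 in WT and 0.06 ± 0.10 in *Mef2c*-het mice (exact permutation p = 0.543 and 0.571). Signals near background understate a change, so differences between a bright and a dim probe hold for these signals and not for transcript numbers. In the other 15 pairs at least 1 probe was not above background. They entered the adjustment, and no other result is drawn from them.

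No member was called between the genotypes. At P1 0 of 5 probes were called, with 0% of 13566 probes tested called. At P30 0 of 5 were called, with 0.00746% of 13413 probes called, which is 1 probe. The interaction of genotype and age was called for 0 of 5, with 0% of 14777 probes (all by limma), and its values for the 5 probes ran from -0.16 to 0.02 log2 units. At an unadjusted limma p under 0.05 the counts of member probes were 0, 1 and 0, beside 1.62%, 2.36% and 2.96% of all probes tested.

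The 1 such probe was the brighter one of *Gabrd* at P30. Normalised over the 8 arrays of that age, WT mice read 9.02, 9.12, 9.21 and 9.19 and *Mef2c*-het mice 8.97, 8.84, 8.99 and 8.92, so that the 2 genotypes did not overlap and *Mef2c*-het mice were the lower, by a narrow gap. The difference was -0.21 ± 0.07 log2 units (SE; 95% confidence interval -0.35 to -0.06), with an exact permutation p of 0.0286 and a limma adjusted p of 0.976. Among all probes tested at P30, 1.18% had *Mef2c*-het arrays entirely below the WT arrays. The other *Gabrd* probe differed by -0.08 ± 0.08 (95% confidence interval -0.25 to 0.10) and its groups overlapped. Leaving out the arrays that stood apart, the brighter probe differed by -0.14 with a limma adjusted p of 0.987.

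For the other members at P30 the differences between *Mef2c*-het and WT mice were -0.11 for *Gabra3* (95% confidence interval -0.26 to 0.05), 0.07 for *Gabrb1* (-0.08 to 0.22) and -0.10 for *Gabrb2* (-0.28 to 0.09). At P1 the differences of the 5 probes ran from -0.07 to 0.07. Ordered by group mean, *Gabrb1* stood lowest in WT at P1 and highest in *Mef2c*-het mice at P30, *Gabrb2* lowest in WT at P1 and highest in WT at P30, and *Gabra3* lowest in *Mef2c*-het mice at P1 and highest in WT at P30. Both *Gabrd* probes stood lowest in *Mef2c*-het mice at P1 and highest in WT at P30. In each of these orders the 2 groups of an age were neighbours that were not called different by limma. The middle neighbours did not overlap, other than WT at P1 (up to 7.84) and *Mef2c*-het at P30 (from 7.83) for *Gabra3*. Within a genotype 25.3% (WT) and 24.3% (*Mef2c*-het) of all probes had P30 entirely above P1. No such share was taken for neighbours of different genotypes, so nothing particular to the members is read from this.

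**Figure D3:**
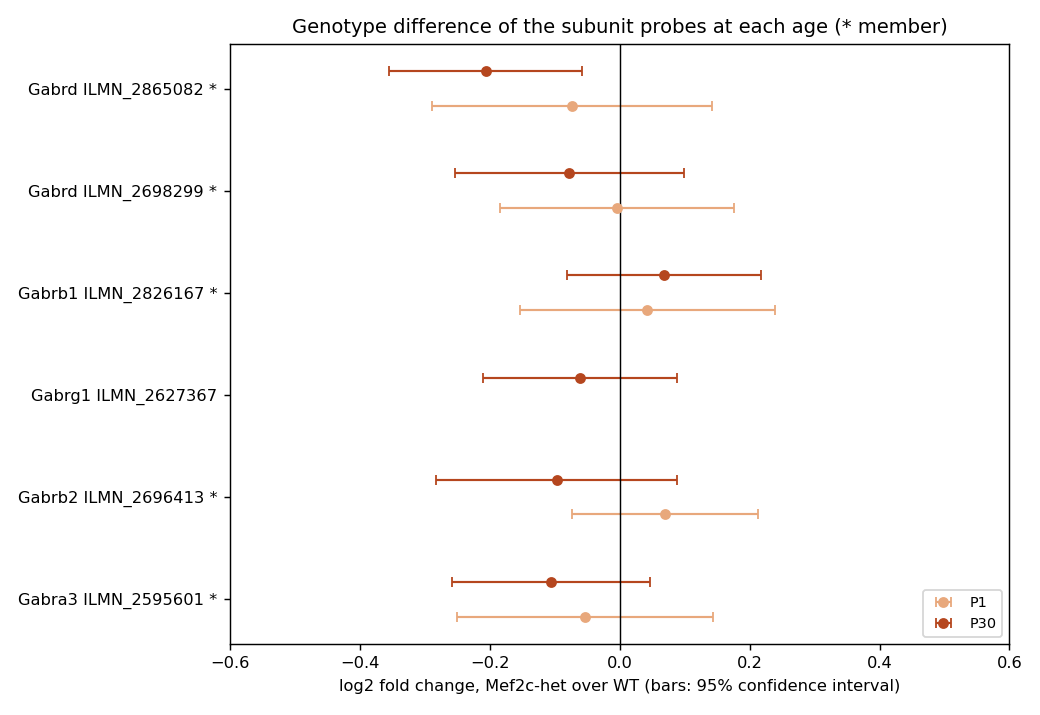
Log2 fold change of *Mef2c*-het over WT mice (horizontal axis) of the same subunit probes at P1 (light) and P30 (dark), with 95% confidence intervals. An asterisk marks members. The interval of 1 *Gabrd* probe at P30, from -0.35 to -0.06, lies below 0, and *Gabrg1* was not tested at P1.

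Of 8 further subunit genes of the receptor family with a probe that are given here, 1 was above background on enough arrays to be tested. *Gabrg1*, a gene of the same cluster as *Gabrb1*, was not above background on any WT array at P1 and was above it on all 4 at P30. It was thus at least 1.18-fold higher, a bound that was not itself tested. The limma adjusted p of 0.000113 belongs to its log2 fold change without the bound, 0.37. *Gabrg1* passed the filter through its P30 arrays. Its change in *Mef2c*-het mice was 0.27 log2 units (limma adjusted p = 0.0018), with 1 of 4 arrays above background at P1. The probes of the other 7, *Gabra6*, *Gabre*, *Gabrg3*, *Gabrp*, *Gabrq*, *Gabrr1* and *Gabrr2*, were not well above background on any of the 16 arrays. None of the 6 subunit probes tested was called lower with age in either genotype. Of all probes tested, 59.7% in WT and 58.3% in *Mef2c*-het mice were called in either direction. Those called higher were 28.0% and 26.9% of all probes.

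Genes that anchor and move the receptor were counted beside the 59.7% of all probes called in WT and the 28.0% called higher. Of 9 tested genes for anchoring and assembly, 7 were called higher and 1 lower at P30 in WT, with a median log2 fold change of 0.79. *Iqsec3*, an exchange factor of inhibitory postsynapses, rose by 2.33 and *Shisa7*, an auxiliary protein of GABA-A receptors, by 2.13 log2 units, and *Mdga1*, which restrains neuroligin-2, fell by 0.19. *Mdga1* lost its call without WT P1 replicate 1, WT P30 replicate 2 or WT P30 replicate 7, with log2 fold changes of -0.14, -0.17 and -0.17. It was also lost with sex as a covariate, on male arrays alone and without the arrays that stood apart, at -0.16, -0.15 and -0.22. Of 13 tested genes for receptor trafficking, 7 were called higher and 1 lower, with a median of 0.29, a share called close to that of all probes. *Nsf*, the fusion ATPase that also binds β subunits, rose by 2.42 and *Kif5a*, a kinesin motor that carries these receptors, by 1.97, and *Gabarap*, a ubiquitin-like protein that binds these receptors, fell by 0.35 (limma adjusted p = 0.0029). With scaling to a common median *Gabarap* had -0.38 ± 0.18 (SE), with a limma adjusted p of 0.0861. *Gabbr1*, a subunit of the GABA-B receptor, rose by 1.10, and the other gene tested in that list was not called.

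**Figure D4:**
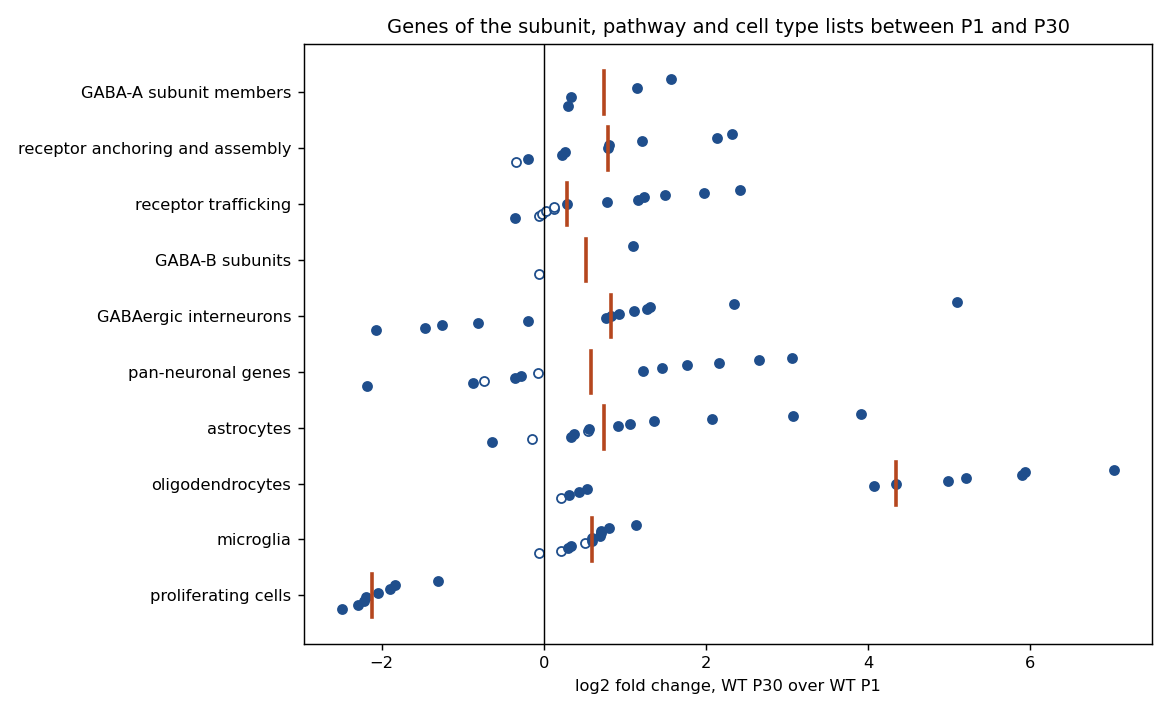
Log2 fold change from P1 to P30 in WT mice (horizontal axis) of each tested gene of 10 lists, 1 point per gene by its brightest tested probe, filled where the limma adjusted p was under 0.05, with the median of each list as a red line. The members lie to the right of 0 throughout (median 0.74), oligodendrocyte genes reach 7.03, and genes of proliferating cells lie between -2.48 and -1.30.

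Marker genes of several cell types moved at the same time, and their part in the subunit changes was not tested. The counts stand beside the 59.7% of all probes called in WT, with 28.0% called higher. Of 13 interneuron genes 8 were called higher and 5 lower in WT mice. *Pvalb*, the marker of fast-spiking interneurons, was not above background at P1 and was at least 30.4-fold higher at P30, and *Vip* rose by 2.35, whereas *Reln* fell by 2.07 and *Dlx1*, a gene of migrating interneurons, fell by 1.47. Of 12 pan-neuronal genes 6 were called higher and 4 lower (median 0.58), with mean levels of the list from 11.28 to 11.49 on the WT arrays at P1 and from 11.93 to 12.17 at P30. Of 12 astrocyte genes 9 were called higher and 1 lower (median 0.74, list levels 9.32 to 9.45 and 10.41 to 10.55). Of 11 oligodendrocyte genes 10 were called higher (median 4.34, list levels 8.41 to 8.60 and 11.93 to 12.08). Of 12 microglia genes 9 were called higher (median 0.60), and all 8 genes of proliferating cells were called lower (median -2.11). Hippocampal genes, some of them near background, had 5 of 13 called higher and 3 lower (median 0.01). Of the lists for neighbouring tissue, thalamus had 3 called higher and 2 lower of 6, striatum 4 and 1 of 7 and choroid plexus 3 and 1 of 10, and blood had 0 and 2 of 4. Choroid plexus genes varied most within a group, with list levels of 8.19 to 9.87 on the WT arrays at P1.

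No gene of these lists was called between the genotypes at either age (limma). At P30, beside the lower *Gabrd* probe, the list levels overlapped between WT and *Mef2c*-het mice for pan-neuronal genes (11.93 to 12.17 and 11.96 to 12.18), interneuron genes (10.77 to 10.93 and 10.86 to 10.96) and hippocampal genes (10.36 to 10.44 and 10.36 to 10.46).

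Among the 14777 tested probes, those whose pattern over the 16 arrays was most like a member were found by Pearson's r, given here as a description, since the age difference sets most of it. For *Gabrd* they were *Selplg*, *Vamp1* and *Spata2l* (r = 0.99 each), and for the deviations from the group means r was 0.70, 0.77 and 0.74. For *Gabrb1* they were *Acot11*, *Ociad2* and *Chst2* (r = 0.99 each), with deviations at 0.59, 0.49 and 0.56. For *Gabra3* they were *Fas*, *Nod1* and *Mvp* (r = 0.93, 0.91 and 0.91), with deviations at 0.83, 0.77 and 0.76. For *Gabrb2* *Trp63* and *Igsf8* are given (r = 0.93 each), with deviations at 0.75 and 0.80. These 16 points share array, background and age.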

How the data were processed

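The authors deposited, for each of 25697 probes and 16 arrays, a mean bead intensity on a linear scale without normalisation between arrays, a p-value of detection, the spread of the bead values as a standard error on the intensity scale, and how many beads were read. The study's methods give log2 transformation and quantile normalisation, and the submitters' processing notes name limma and lumi. Both steps were repeated here with limma 3.58.1 in R 4.3.3. A fit kept those probes that passed a detection p of 0.05 on 4 or more of its arrays. The ages were compared in 1 fit of all 16 arrays and the genotypes in fits of the 8 arrays of an age (lmFit, eBayes, two-sided, Benjamini-Hochberg over all probes tested). Single probes and pairs of probes were also compared by two-sided exact permutation tests over 70 assignments. Genes were named through RefSeq (GRCm38.p6) for 25376 probes. Each gene of a list stands by its brightest tested probe. Named genes were subunits with a probe, some of which and 1 gene of like pattern are not reported here, and up to the 2 largest called rises and falls of each pathway list in WT. The members and lists were chosen with earlier results of these data known. The fit of all 16 arrays was checked on simulated data for the age comparisons, and the other tests were not checked in this way. The labels do not say whether the 4 samples of a group came from separate mice. Samples of both sexes show more than 1 mouse in each P1 group, and otherwise the spread that p-values measure may be in part technical. The number of arrays limits the precision.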

Additional observations from a re-analysis of the deposited data

Results flagged for a closer look

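In 2 of 24 groups of 4 arrays 1 array stood apart from the other 3 of its group by Dixon's ratio, where chance gives about 1 in 20. The less bright *Gabrd* probe read 8.61 on *Mef2c*-het P30 replicate 6 against a mean of 8.82 on the others (ratio 0.955), while the brighter *Gabrd* probe did not set that array apart. The brighter *Gabrd* probe read 7.84 on WT P1 replicate 8 against 7.54 (ratio 0.862), and this is one of the arrays with a higher background.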

How the results depend on the processing

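All 5 member probes stayed called from P1 to P30 in WT mice under every alternative other than sex as a covariate, which left 4, and a call rule that also asks for a log2 fold change of at least 1, which left 3 in WT and 3 in *Mef2c*-het mice. In *Mef2c*-het mice sex as a covariate left 3, male arrays alone left 3 (this setting and the one without the smaller array clusters were chosen after seeing the data, and with males alone WT P1 is 1 array, assumed to vary like the other groups), and leaving out 1 array at a time left 3 to 5, while in WT that gave 5 each time. Between the genotypes 0 probes were called under all alternatives with an adjusted threshold, and 1 at P30 by unadjusted p. Of the 42 tests of unequal change 24 to 30 reached the smallest exact permutation p, 0.0286, over the normalisations. Among the 12 with both probes above background 8 to 10 did. Where only 24 reached it, their adjusted p lay at the threshold of 0.05 and not under it, so unequal change was not secure in every normalisation. Correlations of same-numbered arrays ran from -0.53 to 0.83. Differently numbered arrays were not compared, so these values cannot decide whether the replicate numbers pair the samples. With the number as a block, 5 probes stayed called in WT and 4 in *Mef2c*-het mice, where *Gabrb2* had 0.14 with a limma adjusted p of 0.0869. Signs turned in the genotype comparisons and their interaction with age, none of them called, and not in the age comparisons. For the less bright *Gabrd* probe at P1 (-0.0042 as reported) they became 0.0213 with scaling to a common median, 0.0144 with cyclic loess, 0.00038 with sex as a covariate and 0.10 without the smaller array clusters, and for *Gabra3* at P1 0.14 on male arrays alone. The interaction of genotype and age turned to 0.00232 for *Gabra3* with scaling to a common median and 0.0357 without the smaller clusters, to -0.0053 for *Gabrb1* with the replicate block, and to 0.0846 and 0.0093 for the *Gabrd* probes on male arrays alone. Leaving out 1 array at a time, the P1 differences ran from -0.115 to 0.0123 for *Gabra3*, from -0.0121 to 0.0833 for *Gabrb1*, from -0.0422 to 0.0542 and from -0.13 to 0.0035 for the *Gabrd* probes, and the interactions from -0.12 to 0.0012 for *Gabra3* and from -0.0173 to 0.0772 for *Gabrb1*. Signals near background limit what the probes of *Gabra3*, *Gabrb2* and, at P1, *Gabrd* can show.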
